A study of Mus musculus with 18 samples.

Results

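Nhlh1, Elavl2 and Nt5dc2 are 3 of the 24 genes for which a score of promoter histone marks was listed (in lower case, as nhlh1, elavl2 and nt5dc2), and they were picked by name as promoters that lose active marks as the mouse cerebellum matures. The values behind that choice were the scores of trimethylated lysine 4 of histone H3 (H3K4me3) and acetylation at lysines 9 and 14 (H3K9/14ac) in wild-type (WT) mice, which were lower at postnatal day 22 (P22) than at postnatal day 6 (P6). These age differences are therefore given as descriptions without a test. All data came from chromatin immunoprecipitation sequencing of cerebellum. WT P6, WT P22 and Chd4 conditional knockout (cKO) P22 mice were compared for H3K4me3 and H3K9/14ac, and WT P22 and cKO P22 mice for acetylation of H3 at K27 (H3K27ac), with 2 libraries per mark and group, 16 in all. No cKO libraries at P6 are among the samples. The labels name neither the Cre driver of the cKO nor the strain, and they do not say whether the 2 libraries of a group, labelled B1 and B2, stem from different animals; the p-values cover library-to-library spread alone, which could be technical. A library is called here by its replicate number, 1 or 2.

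CHD4 is the ATP-dependent remodeling subunit of NuRD, a complex that also carries histone deacetylases and is known for shutting down promoters. H3K4me3 marks the start sites of active or poised genes, and acetylation of H3 accompanies active promoters. At P6 the outer layer of the cerebellum still generates granule neurons, whereas at P22 these cells have migrated inward and are forming mature circuits. Nhlh1 (also called Nscl or Hen1) encodes a basic helix-loop-helix transcription factor that is expressed transiently in newly postmitotic neurons, including those of the young cerebellum. Elavl2 (also called HuB) encodes a neuronal member of the Elav family, RNA-binding proteins that attach to AU-rich elements and influence mRNA stability and splicing. Nt5dc2 encodes a protein with a 5'-nucleotidase-like domain.

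The table placed Nhlh1 on chromosome 1 at position 173987694, Elavl2 on chromosome 4 at 91066675 and Nt5dc2 on chromosome 14 at 31944830 (build mm9, per the submitters' processing notes). RefSeq start sites of these protein-coding genes were available in another build, GRCm38.p6, where Nhlh1 had 1 start site, Elavl2 3 groups of start sites and Nt5dc2 2. Which of the alternative start sites lies at the table's position was not resolved, because the builds differ. The 250 bases before the start are shown for 4 of these sites, 5′ to 3′ on the gene's own strand, because they differ widely in CpG content, and CpG-rich promoters commonly carry H3K4me3; each CG is in capitals. The Nhlh1 window is chr1:172057597-172057846 on the minus strand, directly before the gene (chr1:172052292-172057596). For Elavl2, starts 2 and 3 are shown (chr4:91376497-91376746 and chr4:91372070-91372319, minus strand), since the annotated gene (chr4:91211533-91400108) begins within the window of start 1; both windows lie inside that gene. The Nt5dc2 window is that of start 1, chr14:31130839-31131088 on the plus strand, directly before the gene (chr14:31131089-31139124).
Nhlh1 start 1: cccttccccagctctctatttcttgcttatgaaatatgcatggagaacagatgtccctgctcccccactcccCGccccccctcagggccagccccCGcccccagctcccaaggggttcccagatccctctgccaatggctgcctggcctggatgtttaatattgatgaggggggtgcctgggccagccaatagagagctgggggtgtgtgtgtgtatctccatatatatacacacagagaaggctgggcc
Elavl2 start 2: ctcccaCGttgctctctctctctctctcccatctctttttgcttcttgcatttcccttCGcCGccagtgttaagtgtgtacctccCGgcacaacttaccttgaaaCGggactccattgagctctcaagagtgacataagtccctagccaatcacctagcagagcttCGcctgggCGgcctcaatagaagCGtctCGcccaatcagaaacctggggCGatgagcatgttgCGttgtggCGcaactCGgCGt
Elavl2 start 3: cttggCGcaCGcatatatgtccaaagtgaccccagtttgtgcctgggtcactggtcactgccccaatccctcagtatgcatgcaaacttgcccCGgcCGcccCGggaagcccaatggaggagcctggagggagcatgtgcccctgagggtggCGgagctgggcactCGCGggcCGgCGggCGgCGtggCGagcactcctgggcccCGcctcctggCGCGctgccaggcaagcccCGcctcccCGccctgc
Nt5dc2 start 1: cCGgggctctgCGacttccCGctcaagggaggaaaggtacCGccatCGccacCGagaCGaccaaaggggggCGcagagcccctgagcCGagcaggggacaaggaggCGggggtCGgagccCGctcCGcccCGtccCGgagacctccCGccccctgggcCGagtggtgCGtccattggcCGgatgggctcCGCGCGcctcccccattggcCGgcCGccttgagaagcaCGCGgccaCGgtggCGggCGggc

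The Nhlh1 window held 2 CpGs in 250 bases, fewer than the median of 6 over all 32851 mouse windows of that length, although its GC content was 58.4%. Nt5dc2 lay at the other end, with 29 CpGs and 74.8% GC, more CpGs than 93.2% of all windows. Elavl2 stood between them, with 10, 14 and 18 CpGs at its starts 1, 2 and 3. The second start of Nt5dc2, 3647 bases downstream of the first, had 7. CpG content thus differed among the 3 promoters. Of the other 21 genes of the table, 11 matched a symbol in the window table, and their CpG counts, as medians over start sites, ran from 1 to 22 with a median of 6.

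Short motifs were searched on both strands of the same windows, and no matches overlapped each other. CCAAT, the letters of the CCAAT box, occurred at 2 places in the Nhlh1 window, in the Elavl2 windows of starts 2 and 3 and in both Nt5dc2 windows, and at none in that of Elavl2 start 1; 33.8% of all windows held at least 1. GGGCGG, the GC box, occurred at 2 places in the Nhlh1 window, at 0, 1 and 3 in the Elavl2 windows of starts 1, 2 and 3 and at 3 and 1 in the Nt5dc2 windows of starts 1 and 2, and 32.7% of all windows held it. CANNTG, the E-box to which basic helix-loop-helix factors bind, was found in the Nhlh1 window as CAGATG from base -203 counted from the start site, and once each in the windows of Elavl2 start 3 and Nt5dc2 start 2, with 66.2% of all windows holding 1 or more. TATAAA was in none of the 6 windows and in 12.4% of all. These matches describe the letters only.

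The scores themselves, in the authors' units, ran from -0.82 to 67 over the table's 376 values, 40 of them below 0. Depth and the step that set the zero are not stated in the sources used here, so a score near 0 is read only as low within its mark, and levels are not compared between marks. Replicate 2 tended to score above replicate 1. The median over the other 21 promoters of this difference on the log2(score + 2) scale ran from 0.16 to 0.69 in 7 of the 8 groups and was -0.13 in the H3K27ac WT libraries. Of 7 gene lists with 67 members in all (cerebellar cell types, granule neuron stages, basic helix-loop-helix factors, the Elav family and other neuronal RNA-binding proteins, the 5'-nucleotidase family and NuRD subunits), only Nhlh1, Elavl2 and Nt5dc2 were in the table. Tissue markers, other members of the 3 gene families and Chd4 itself therefore could not be checked here.

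At Nhlh1 the WT score went from near the top of the table at P6 to near 0 at P22. H3K4me3 scored 36.99 and 50.09 in the P6 libraries and -0.06 and -0.50 in the WT libraries of P22. The cKO libraries of P22 scored 19.67 and 32.39. Both WT P22 libraries lay below those of the other groups, and no 2 of the 3 groups overlapped. Over the table, WT P22 lay below P6 at 25% of promoters and below the cKO at 69.6%, and the cKO lay below P6 at 8.7%. The means were 43.5 ± 9.26 at P6, -0.28 ± 0.31 in WT at P22 and 26.0 ± 8.99 in the cKO (SD, n = 2 each). Among the 24 promoters of the table, Nhlh1 ranked 2 from the top at P6 and 19 in WT at P22, and in the cKO it ranked 5 of 23. Because chromatin came from whole cerebella, fewer cells carrying a mark cannot be told apart from less of the mark in each cell.

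As deposited, H3K9/14ac followed the same order at Nhlh1 except that the cKO reached the P6 level. P6 libraries scored 12.03 and 10.60, WT libraries of P22 0.19 and 0.72, and cKO libraries 11.08 and 14.31. The P6 and cKO ranges overlapped, and both stood far above WT at P22. Over the table, WT P22 lay below P6 at 37.5% of promoters and below the cKO at 95.7%. With libraries centred on their medians, the log2 difference of the cKO from P6 at Nhlh1 was -1.17. The mean went from 11.3 ± 1.01 at P6 to 0.46 ± 0.37 in WT at P22, and stood at 12.7 ± 2.28 in the cKO (SD, n = 2 each). In rank Nhlh1 went from 2 to 21 of 24 and stood at 4 of 23 in the cKO. H3K27ac, measured only at P22, scored -0.04 and 0.57 in WT and 11.03 and 13.79 in the cKO, which put Nhlh1 at rank 18 in WT and at rank 5 in the cKO, of 23.

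**Figure D1:**
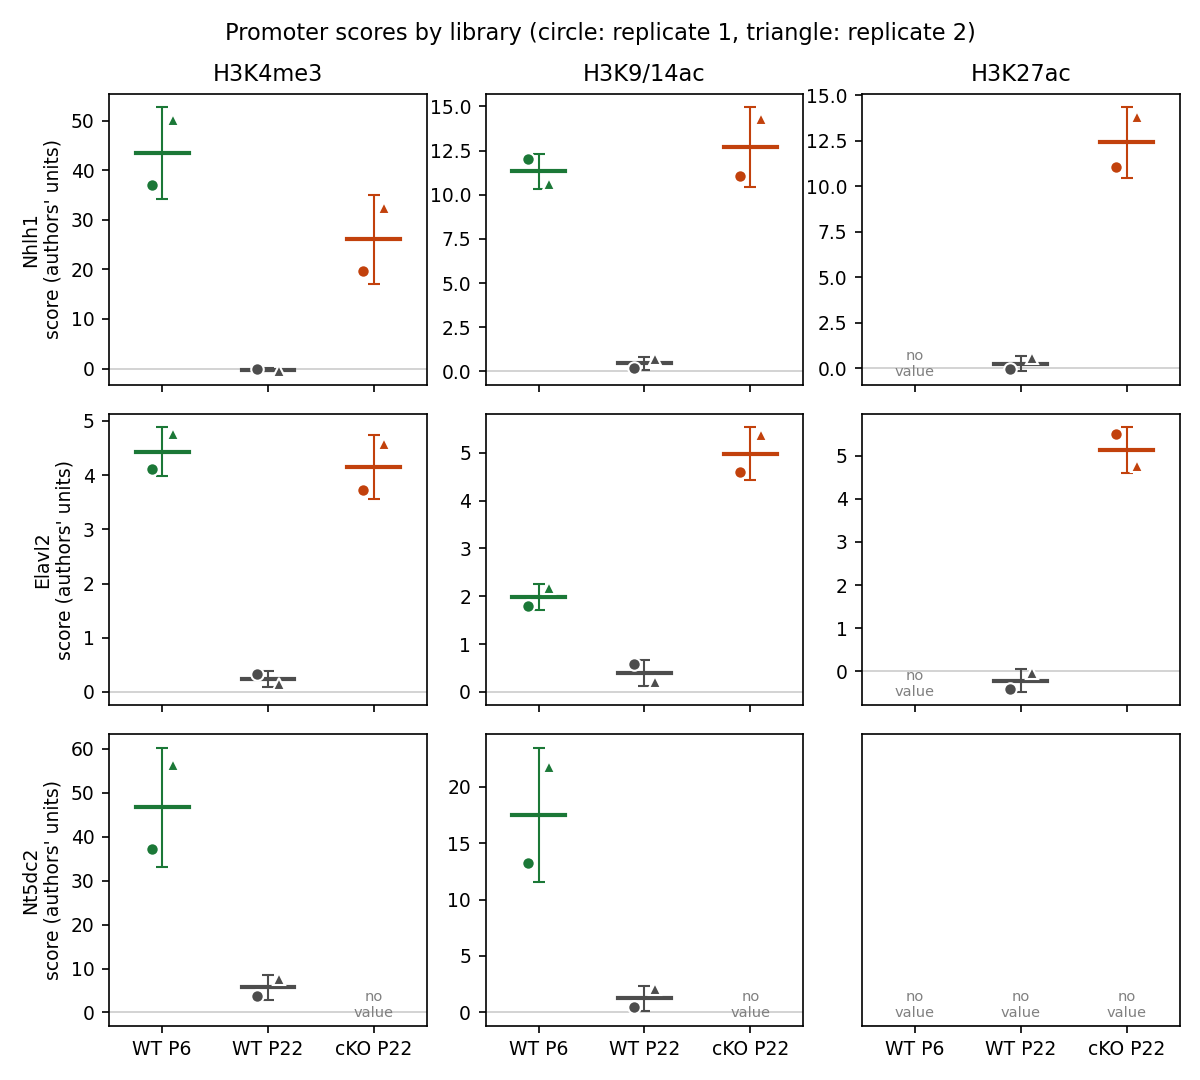
Score of each library (y axis, authors' units, scaled separately in each panel) at Nhlh1, Elavl2 and Nt5dc2 for the 3 marks, by group; horizontal lines are means and error bars the SD of 2 libraries. WT P22 is the lowest group in every panel with values, and the cKO libraries of Nhlh1 stay below P6 for H3K4me3 (19.67 and 32.39 against 36.99 and 50.09) but overlap it for H3K9/14ac.

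Elavl2 moved in the same directions from a much lower level. Its H3K4me3 scores were 4.11 and 4.75 at P6, 0.34 and 0.14 in WT at P22, and 3.73 and 4.57 in the cKO. The cKO and P6 libraries overlapped, with WT P22 below both. Over the table, WT P22 lay below P6 at 25% of promoters and below the cKO at 69.6%. Means were 4.43 ± 0.45, 0.24 ± 0.14 and 4.15 ± 0.59 (SD, n = 2 each). Even at P6 Elavl2 ranked only 14 of 24 for H3K4me3, below the table median of 5.80, and in the cKO it ranked 16 of 23, against a median of 16.3.

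As deposited, the H3K9/14ac scores of Elavl2 were higher in the cKO than at either age in WT. They were 1.80 and 2.18 at P6, 0.59 and 0.21 in WT at P22, and 4.59 and 5.37 in the cKO. The 3 groups did not overlap. Over the table, the cKO lay above WT P22 at 95.7% of promoters and above P6 at 87%, and WT P22 lay below P6 at 37.5%. With libraries centred, the log2 difference of the cKO from P6 had the other sign, -0.50 on the tested promoters and -0.55 on all. H3K27ac scored -0.40 and -0.03 in WT at P22 and 5.50 and 4.75 in the cKO. Relative to the other promoters Elavl2 stayed low in these marks too: it ranked 14 at P6 and 22 in WT at P22 of 24 for H3K9/14ac, and in the cKO 18 of 23 for H3K9/14ac and 19 of 23 for H3K27ac.

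Nt5dc2, for which 8 of the 16 libraries have scores, was the highest promoter of the table at P6 in both marks. H3K4me3 scored 37.15 and 56.32 at P6 and 3.74 and 7.70 in WT at P22. H3K9/14ac scored 13.27 and 21.70 at P6 and 0.49 and 2.05 at P22. The ages did not overlap in either mark. Over the table, P22 lay below P6 without overlap at 25% of promoters for H3K4me3 and at 37.5% for H3K9/14ac. Unlike Nhlh1 and Elavl2, Nt5dc2 kept an intermediate H3K4me3 score at P22, with a mean of 5.72 ± 2.80 (SD, n = 2) that ranked 12 of 24, above the table median of 4.42. Its H3K9/14ac mean of 1.27 ± 1.10 (SD, n = 2) ranked 15. Replicate 2 was higher than replicate 1 in each of its 4 groups, by 0.57 to 0.76 on the log2(score + 2) scale, more than the median of the other promoters in the same libraries. It has no value in the cKO or for H3K27ac, and these were not analysed here.

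**Figure D2:**
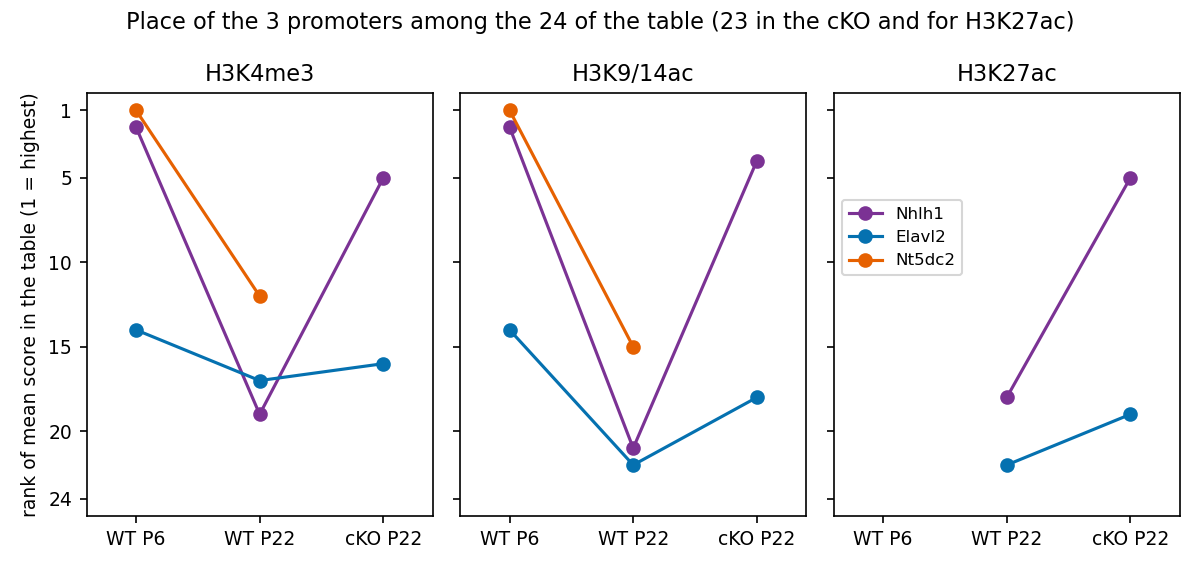
Rank of each promoter's mean score among the promoters of the table (y axis, 1 = highest) in WT P6, WT P22 and cKO P22, by mark. Nhlh1 goes from rank 2 to rank 19 and back to rank 5 for H3K4me3, whereas Elavl2 stays between ranks 14 and 17, and Nt5dc2 goes from rank 1 to rank 12.

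On the log2(score + 2) scale, where the added 2 makes fold changes at low scores look smaller, H3K4me3 differed between P22 and P6 by -4.72 ± 0.43 at Nhlh1, -2.68 ± 0.43 at Nt5dc2 and -1.52 ± 0.43 at Elavl2 (limma difference ± SE, 2 libraries per group). The SE is equal because limma pooled the spread over all promoters. These were the 3 lowest values among 19 promoters tested, and the lowest of the others was -1.02. For H3K9/14ac the differences were -2.58 ± 0.28 at Nt5dc2, -2.45 ± 0.28 at Nhlh1 and -0.74 ± 0.28 at Elavl2, again the 3 lowest, here of 23, ahead of -0.45. The other promoters centred near 0, with medians of 0.14 and 0.01. As the genes were picked on this contrast, their place at the end of the list is how they were chosen and no result. Both P22 libraries lay below both P6 libraries at all 3 members in each mark, and over the table this held at 25% of promoters for H3K4me3 and at 37.5% for H3K9/14ac. Elavl2 was the member nearest to the rest of the table.

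In score units the 3 genes kept this order in each mark. The P22 minus P6 difference in H3K4me3 was -43.8 at Nhlh1, -41.0 at Nt5dc2 and -4.19 at Elavl2. For H3K9/14ac it was -16.2 at Nt5dc2, -10.9 at Nhlh1 and -1.59 at Elavl2. Elavl2 ranked 3 from the lowest on the log2 scale but 6 of 24 in score units for H3K4me3, and 5 of 24 for H3K9/14ac.

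H3K27ac was the mark in which the knockout could be compared at these promoters on libraries other than those of the age difference. The genes were picked with earlier results of these data known, this mark included, so the test is not fully independent of the choice. Whether they share chromatin preparations with the other marks is not given in the sources used here. The H3K27ac score of Nhlh1 was 0.27 ± 0.43 in WT and 12.4 ± 1.95 in the cKO (SD, n = 2 each), a log2 difference of 2.68 ± 0.23 (SE) with limma, Benjamini-Hochberg adjusted p = 1.6e-13. Elavl2 went from -0.22 ± 0.26 to 5.12 ± 0.53 (SD, n = 2 each), a log2 difference of 2.00 ± 0.23 (SE) with limma, Benjamini-Hochberg adjusted p = 4.2e-10. Both genes thus rose, and these were the largest log2 differences among the 21 promoters tested. The same test called 95.2% of those 21 promoters higher, so that passing it sets neither gene apart. With each library centred on its median the limma test called 5 promoters higher and 6 lower. Centring takes out the shift of the whole table, so its lower calls are relative to that shift and not losses of score. On the log2 scale without centring, the differences of Nhlh1 and Elavl2 stood above the table median of 1.06. They also stood above the range of the other 19 promoters, 0.41 to 1.99, although Elavl2 exceeded its upper end by less than the SE. In score units Nhlh1 ranked 1 of 23, with a gain of 12.1, and Elavl2 ranked 11, with a gain of 5.34. Both passed the filter on low scores only through their cKO libraries; with no filter, limma adjusted p was 1.2e-14 for Nhlh1 and 6.9e-11 for Elavl2. Leaving out single libraries gave log2 differences of 2.48 to 2.87 at Nhlh1 and 1.85 to 2.15 at Elavl2.

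That table-wide shift bears on the reading of each member. It was seen over the listed genes only, and whether it holds at other promoters of the genome was not tested. With every library shifted to a common median, Nhlh1 still differed by 1.51 ± 0.18 (limma adjusted p = 6.3e-05) and Elavl2 by 0.83 ± 0.20 (limma adjusted p = 0.0050) in H3K27ac. Limma treats promoters as independent and pooled their spread, so its p-values are too small where a shift is common to a library. An exact permutation test of 2 libraries against 2 cannot give less than p = 0.33 for a single promoter. The cKO and WT libraries did not overlap, with the cKO higher, at Nhlh1 and at Elavl2, as at 95.7% of the table's promoters.

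For H3K4me3 and H3K9/14ac the cKO was set against the same WT P22 libraries whose low scores chose the genes, so the values are given without a test. H3K4me3 at Nhlh1 differed by 4.00 ± 0.42 (limma log2 difference ± SE) and H3K9/14ac by 2.58 ± 0.27. Each was the largest of its comparison, of 18 and 22 promoters. At Elavl2 the differences were 1.46 ± 0.42 and 1.54 ± 0.27, ranks 6 of 18 and 4 of 22. The medians of all promoters tested were 0.94 and 0.95. The cKO libraries lay above the WT libraries at both genes in both marks, and over the table at 69.6% of promoters for H3K4me3 and at 95.7% for H3K9/14ac.

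With the libraries centred on their medians the cKO difference of Nhlh1 was 3.06 for H3K4me3 and 1.44 for H3K9/14ac. That of Elavl2 was 0.52 and 0.40. At Elavl2, centring on the median of all promoters with complete values, those with low scores included, turned the H3K4me3 difference to -0.29. The direction of Elavl2 relative to the rest of the table is thus unsettled for H3K4me3. In score units Elavl2 gained 3.91 in H3K4me3, rank 16 of 23 from the top, and 5.34 in H3K27ac, rank 11.

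The cKO at P22 was then set against WT at P6, which shows how far the knockout scores stood from those of the immature tissue. These comparisons share the P6 libraries with the age difference and are descriptions as well. H3K4me3 at Nhlh1 was lower in the cKO than at P6, by 17.5 score units, and the libraries did not overlap, which held in that direction at 8.7% of the table's promoters. On the log2 scale the difference was -0.72 ± 0.42 (limma difference ± SE). For H3K9/14ac it was 0.14 ± 0.27. Elavl2 differed by -0.07 ± 0.42 in H3K4me3 and by 0.81 ± 0.27 in H3K9/14ac, where both cKO libraries lay above both P6 libraries, as at 87% of the table's promoters. The table median stood higher in the cKO than at P6 by 0.87 and 1.00. Nhlh1 had the lowest difference of all promoters tested in each mark. With libraries centred on their medians the difference of Elavl2 was -1.17 in H3K4me3 and turned to -0.50 in H3K9/14ac. That of Nhlh1 was -1.83 in H3K4me3 and -1.17 in H3K9/14ac.

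A further way to put the 3 groups together is the cKO minus WT difference at P22 as a percentage of the P6 minus P22 difference in WT, both in score units. This share is free of the score's unknown zero only if that zero is the same in the 3 groups. It also assumes equal scaling of the libraries. The sources used here say nothing about either. At Nhlh1 it was 60.0% for H3K4me3 and 113% for H3K9/14ac. Over the 8 ways of taking 1 library per group it ran from 39.3% to 87.7% and from 91.6% to 138%. These ways reuse the same libraries, so their ranges are no measure of error. Elavl2 had a share of 93.3% for H3K4me3 (76.9% to 112%) and of 288% for H3K9/14ac (222% to 395%), the latter on a small drop of 1.59 score units. At both genes the acetylation share was above the H3K4me3 share. Over the table, the cKO lay above P6 without overlap at 87% of promoters for H3K9/14ac and at 65.2% for H3K4me3. The shares rest on uncentred scores. With libraries centred on their medians, the cKO stood below P6 on the log2 scale at both genes in both marks. The difference between the marks was not tested, because each share rests on the WT libraries that chose the genes.

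**Figure D3:**
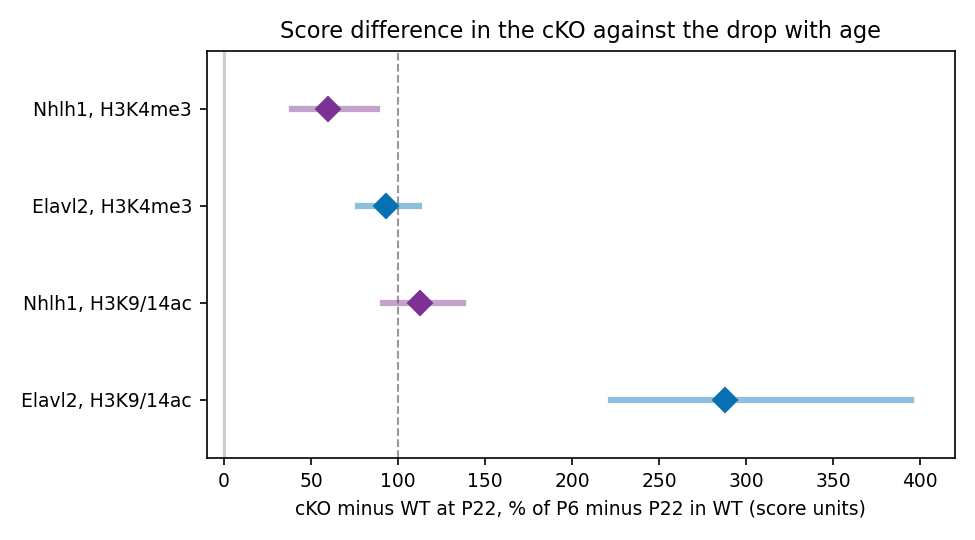
Score difference between cKO and WT at P22 as a percentage of the score difference between P6 and P22 in WT (x axis), for Nhlh1 and Elavl2 in H3K4me3 and H3K9/14ac; diamonds use group means, bars span the 8 choices of 1 library per group, and the dashed line marks a cKO score equal to that of P6. H3K4me3 at Nhlh1 lies at 60.0% and H3K9/14ac at Elavl2 at 288%.

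Likeness between promoters over single libraries was measured as Pearson's r of log2(score + 2), centred on each promoter's mean within each mark, and is a description over libraries that share table-wide shifts. Nhlh1 and Elavl2 were each other's nearest promoter, with r = 0.91 over 16 libraries, against medians over 22 promoters of 0.41 for Nhlh1 and 0.61 for Elavl2. Nt5dc2, over its 8 WT libraries, had r = 0.93 with Nhlh1 and 0.91 with Elavl2, and a median of -0.04 over 23 promoters. Smoc1 was nearer to Nt5dc2 than Elavl2 was, with r = 0.93. These 8 libraries are the ones whose values chose the genes, so the likeness of Nt5dc2 to the others is set by the choice, and they are also among the 16 behind the value for Nhlh1 and Elavl2.

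Outside the 3 genes, Scn3b and Oprl1 were nearest to Nhlh1 (r = 0.84 and 0.79), Smoc1 and Scn3b nearest to Elavl2 (0.87 and 0.86) and Smoc1 and Scn3b nearest to Nt5dc2 (0.93 and 0.85). Scn3b encodes a sodium channel beta subunit, Oprl1 the nociceptin receptor and Smoc1 a secreted calcium-binding matrix protein. Their H3K4me3 differences between P22 and P6 were -0.97, -1.02 and -0.66 (limma log2 differences). In the cKO their H3K4me3 differed from WT by 0.51, 1.74 and 0.78, against 4.00 at Nhlh1 and 1.46 at Elavl2. Oprl1, also lower at P22 than at P6 in H3K4me3, thus stood above Elavl2 in this mark. In H3K9/14ac Oprl1 differed by -0.17 between P22 and P6, and by 1.13 between cKO and WT, against 1.54 at Elavl2. In H3K27ac its cKO difference was 0.66, against 2.00 at Elavl2.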

How the data were processed

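Chromatin from cerebella was immunoprecipitated and sequenced on the Illumina HiSeq platform, per the labels' protocols; BWA and mm9 are named, without versions, in the submitters' processing notes. The authors' deposited table gives a score for 24 genes in 16 libraries; how windows, scaling and background were set is not stated in the sources used here. WT columns that name no age were taken as P22. Scores are not counts, so depth and counting error are unknown. The table of mean curves and the 2 inputs were not used.

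Each mark had 1 fit over its libraries in limma 3.58.1 (R 4.3.3) on log2(score + 2), without covariates. Promoters entered if 2 or more libraries of that mark scored 1 or higher, with Benjamini-Hochberg adjustment over all of them and a threshold of 0.05. The design allowed for counts, but the values required this test. Nt5dc2 has no cKO value and was fitted on the groups it has. The fits were tested on simulated data. Members, lists, pseudocount and filter were chosen with earlier results of these data known. Named besides the 3 genes were the 2 promoters most like each. Sequences came from RefSeq (GRCm38.p6). Alternatives were other pseudocounts, no filter, a replicate block, no log, each promoter's own spread, centred libraries, fits of the 2 groups alone and each library left out. Tables and plots were made in Python 3.11.15 (pandas 2.3.3, numpy 2.4.6, matplotlib 3.10.9).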

Additional observations from a re-analysis of the deposited data

How the results depend on the processing

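The cKO rise in H3K27ac at Nhlh1 and Elavl2 kept its direction in all 26 alternative values (limma adjusted p 0.033 with own spreads). They reuse libraries known when the genes were picked, where limma called 95.2% of promoters higher. The pseudocount sets the size: with 20 the log2 differences were 0.68 and 0.34, and with 1 they were 3.44 and 3.00. Of 182 alternatives for untested differences, 142 moved by under 1 SE (or, without log, kept sign) and 8 changed sign. Of these, 3 were of differences larger than their SE, all at Elavl2: H3K4me3 in cKO against WT (-0.29, libraries centred on all promoters) and H3K9/14ac in cKO against P6 (-0.50, centred on tested promoters, and -0.55, on all). The other 5 were of differences smaller than their SE, both in cKO against P6: Nhlh1 in H3K9/14ac (-1.17 and -1.22 with the centrings, -0.024 without cKO P22 replicate 2) and Elavl2 in H3K4me3 (0.0060 without WT P6 replicate 2, 0.033 without cKO P22 replicate 1). The cause was not tested.

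Counts of promoters called by limma moved more; paired numbers in brackets are the higher and the lower calls. For H3K27ac, 20 (all higher) became 8 with own spreads and 11 under both centrings (5, 6); without 1 library they were 15 to 20. For H3K4me3 in cKO against WT, 9 (all higher) became 5 with pseudocount 20, 15 with the replicate block, 0 without log (5 at an unadjusted limma p under 0.05), 3 with own spreads, 5 (4, 1) and 14 (2, 12) with the centrings, and 5 to 12 without 1 library, the lowest without WT P22 replicate 1. For H3K9/14ac, 18 (all higher) became 11 with own spreads, 10 (3, 7) and 9 (3, 6) with the centrings, and 11 to 20 without 1 library, again lowest without WT P22 replicate 1. For age, H3K4me3 had 5 calls (2, 3), and 2 with pseudocount 20, 10 with the block, 1 without log, 2 with own spreads, 10 (4, 6) and 13 (8, 5) with the centrings, and 3 to 5 without 1 library, the lowest without WT P22 replicate 2. H3K9/14ac had 3 (1, 2), and 7 with the block, 1 without log, 1 with own spreads, 6 (1, 5) and 8 (1, 7) with the centrings, and 2 to 4 without 1 library. For cKO against P6, the 9 H3K4me3 calls (all higher) became 0 without log and 0 with own spreads (8 and 7 at an unadjusted limma p under 0.05), 9 (4, 5) and 12 (3, 9) with the centrings, and 4 to 11 without 1 library, the lowest without cKO P22 replicate 2; the 17 H3K9/14ac calls (all higher) became 11 with own spreads, 11 (2, 9) and 12 (2, 10) with the centrings, and 12 to 19.

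Same-numbered libraries deviated together for H3K4me3 and H3K9/14ac (r from 0.22 to 0.74 across promoters) but not for H3K27ac (-0.29). The labels do not say what a shared number marks, and each comparison has only 2 numbers, so they were not taken as pairs. The replicate block left the differences of the 3 genes as they were and narrowed the SE for H3K4me3 and H3K9/14ac, as at Nhlh1 for H3K4me3 in cKO against P6 (-0.72 ± 0.24). With the replicate block, H3K27ac had 18 calls, and with the pairing crossed, a choice made after the data were seen like the second centring, 21.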

Other observations

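The promoter of the table nearest to Nhlh1 in mm9 was that of Casq1, the calsequestrin gene of muscle calcium stores, 162 kb away on chromosome 1 at position 174149970. It was chosen for its position. Casq1 scored low in WT at both ages: H3K4me3 scored -0.54 in both P6 libraries and -0.30 and -0.46 in WT at P22, and H3K9/14ac scored 0.70 in both P6 libraries and 0.78 and 0.65 in WT at P22. In the cKO it scored 7.59 and 12.87 in H3K27ac, against 1.61 and 1.72 in WT, and 3.95 and 8.30 in H3K9/14ac. Its H3K4me3 scores there were 0.31 and 1.65, whereas Nhlh1 scored 19.67 and 32.39.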
